A study of Drosophila melanogaster with 3 samples.

Results

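The genes described here are the small nucleolar RNA (snoRNA) genes of Drosophila melanogaster and the genes that host them, examined for ChIP-seq peaks of Noc (no ocelli), a zinc finger factor, tagged with GFP in whole larvae. All genes with the biotype snoRNA in the Ensembl annotation of the dm6 assembly were taken, 269 of 18164 annotated genes on the major arms (X, both arms of 2 and 3, and 4) once transposons were left out. A snoRNA gene was called nested when it lay wholly inside a protein-coding gene, noncoding RNA gene or pseudogene on the same strand, which is then its host. By this rule 247 snoRNA genes were nested in 95 host genes and 22 were not, 10 of which lay inside a gene on the other strand. Chromatin immunoprecipitation followed by sequencing (ChIP-seq) had been done with an antibody against GFP on 3 libraries, biological replicates of 1 group. All of them came from the same transgenic line, in which the C terminus of noc is fused to GFP, and from larvae of both sexes pooled, to which the labels give an age of 48 days. There was no second condition and no peak list from untagged larvae among the samples, so the level at these starts without the tag is not analysed here. In whole larvae a peak from few cells and a weak peak in many cells cannot be told apart.

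The snoRNAs are short RNAs of the nucleolus that pair with ribosomal RNA and guide its chemical modification. Box C/D snoRNAs guide the methylation of ribose and work with fibrillarin, while box H/ACA snoRNAs guide the change of uridine to pseudouridine and work with dyskerin. Small Cajal body RNAs (scaRNAs) do the same for spliceosomal RNAs. In flies, as in other animals, most snoRNAs have no promoter of their own and are cut out of the introns of a host transcript, often that of a ribosomal protein or of a noncoding snoRNA host gene (Uhg). The U3 snoRNA, which acts in the cutting of the ribosomal RNA precursor, is one that is transcribed alone.

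Each replicate had a list of 30000 peaks, as did the pool of the libraries, and the authors' list of peaks that passed a threshold for irreproducible discovery (IDR) held 7201. These 7201 were the strongest of the pooled peaks by signal value, a score whose scale is not given, so it is compared only within a list. To set replicates side by side, each replicate list was reduced to its 7201 peaks of highest signal. Of the IDR summits, 82.5%, 68.9% and 78.6% had a summit within 100 bp in the reduced lists of replicates 1, 2 and 3, so replicate 2 stood furthest from the pooled call. A start was called when a summit lay within 500 bp of it. The depth is unknown, since the lists give no read numbers, and Wilson 95% intervals below cover counting error over genes only.

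The promoters of 3 hosts are printed first, because they show 3 kinds of host start at which summits were found, those of a ribosomal protein gene, another coding gene and a noncoding gene. Each runs from 250 bases before the annotated gene start to 50 after it, counting the start base as the first of those 50, read 5′ to 3′ on the coding strand from the RefSeq copy of dm6. Capitals mark 5 words that were searched, the first 4 of them on both strands. The word TATCGATA is the site of the factor DREF, which acts at many promoters of growth genes. The E-box word CACGTG is bound by Myc and related factors. The word TAATTA is the core of many homeodomain sites, and the GATA factor word searched was TGATAA. The last word, CTTT, was searched on the coding strand alone, beginning within 5 bases of the start, where ribosomal protein genes have a run of pyrimidines.
RpL3, chr3R:11221644-11221943, plus strand: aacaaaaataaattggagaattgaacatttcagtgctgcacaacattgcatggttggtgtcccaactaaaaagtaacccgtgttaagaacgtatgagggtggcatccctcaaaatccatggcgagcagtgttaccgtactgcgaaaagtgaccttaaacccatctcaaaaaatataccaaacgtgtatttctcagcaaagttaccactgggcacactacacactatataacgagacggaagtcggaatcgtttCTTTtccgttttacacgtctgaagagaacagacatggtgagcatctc
Sf3b3, chr3L:833336-833635, minus strand: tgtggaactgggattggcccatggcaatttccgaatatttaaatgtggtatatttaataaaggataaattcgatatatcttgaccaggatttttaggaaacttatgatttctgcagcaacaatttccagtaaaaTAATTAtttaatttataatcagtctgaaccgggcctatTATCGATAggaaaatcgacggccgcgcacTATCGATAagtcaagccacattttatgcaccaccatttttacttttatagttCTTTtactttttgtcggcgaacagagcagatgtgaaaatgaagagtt
Uhg2, chr2L:9894954-9895253, minus strand: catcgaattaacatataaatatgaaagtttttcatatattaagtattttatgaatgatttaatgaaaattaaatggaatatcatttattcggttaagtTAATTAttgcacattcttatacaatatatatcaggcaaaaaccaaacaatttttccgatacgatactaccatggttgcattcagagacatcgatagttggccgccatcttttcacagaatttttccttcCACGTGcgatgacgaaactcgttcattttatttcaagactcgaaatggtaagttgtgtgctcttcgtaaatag
RpL3, which encodes a protein of the large ribosomal subunit, held its IDR summit 43 bp downstream of the start, and its only word was CTTT, 3 bp downstream of the start. Sf3b3, for a splicing factor subunit of the U2 particle, also had its summit 43 bp downstream. Its promoter held TATCGATA at 49 bp and at 78 bp upstream, TAATTA at 116 bp upstream and CTTT at 3 bp downstream. In Uhg2, a noncoding host of 4 snoRNAs, the summit lay 82 bp upstream, with CACGTG 23 bp upstream and TAATTA 152 bp upstream. The GATA word occurred in none of these 3 promoters.

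Few snoRNA genes had a Noc-GFP summit at their own start. In the IDR list 23 of 269 (8.55%, Wilson 5.76% to 12.5%) were called, against a background of 18.9% of all annotated genes called by the same rule at the gene start. The reduced lists of replicates 1, 2 and 3 called 23, 19 and 22 snoRNAs, or 7.93% ± 0.774 (SD, n = 3), against 19.8%, 17.7% and 19.0% of all genes. The 3 libraries thus lay close together and all well below the share of all genes. They were near the share of noncoding genes and pseudogenes that host no snoRNA, counted at any transcript start. Of those genes 8.95% were called in the IDR list and 8.78% ± 0.307 in the replicates (SD, n = 3), so a low share is not particular to snoRNAs. The 23 calls rested on 19 distinct summits, since neighbouring snoRNAs can share one, and 11 of the 23 were called in all 3 replicates, 8 in 1 or 2 and 4 in none. A further 12 snoRNAs were called in at least 1 replicate and not in the IDR list. In the whole pooled list 47 snoRNAs (17.5%) were called, against 39.4% of all genes.

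Summits inside the RNA itself were also counted, over a far shorter stretch than the 500 bp to each side used for a call. A lower count is expected from that length alone, and no share over other genes is given. Of the 269 genes, which had a median length of 134 bp, 1 contained an IDR summit, Me18S-C1968, a methylation guide in an intron of Swim, and 7 contained a summit of the pooled list. By the class that the annotated name gives, 7 of 100 box C/D snoRNAs and 10 of 120 box H/ACA snoRNAs (8.33%) were called, scaRNAs included, as were 6 of 49 with other names (12.2%). The replicates gave 7.33% ± 0.577 for box C/D and 8.89% ± 1.27 for box H/ACA (SD, n = 3), and box C/D was lower in 2 of 3 libraries (exact sign-flip permutation test over libraries, two-sided, p = 0.5, where 0.25 is the smallest that 3 libraries allow). None of the 16 scaRNAs was called in the IDR list or in any reduced replicate list. The Wilson upper limit for 0 of 16 is 19.4%, so the interval includes the 18.9% of all annotated genes.

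Summits near nested snoRNAs lay upstream of them, towards the host start. Of the 247 nested snoRNAs 16 were called (6.48%, Wilson 4.03% to 10.3%), and in 15 of the 16 the nearest summit was upstream of the snoRNA on its own strand. Within 100 to 1100 bp of nested snoRNA starts, the IDR list placed 64 summits upstream and 0 downstream, counting a summit once for each snoRNA near it. The replicates placed 72, 67 and 61 upstream and 1, 5 and 2 downstream, so the imbalance was there in each library. Over the whole range of 100 to 1900 bp the IDR list placed 131 upstream and 14 downstream, and the replicates 150, 135 and 117 upstream and 13, 11 and 19 downstream, so summits downstream of nested snoRNAs did occur, mostly beyond 1100 bp. Most nested snoRNAs were intronic (227, with 17 inside an annotated exon and 3 partly exonic), and their start lay a median 1465 bp downstream of the nearest upstream host start, so for most of them a summit at the host start is beyond 500 bp.

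**Figure D1:**
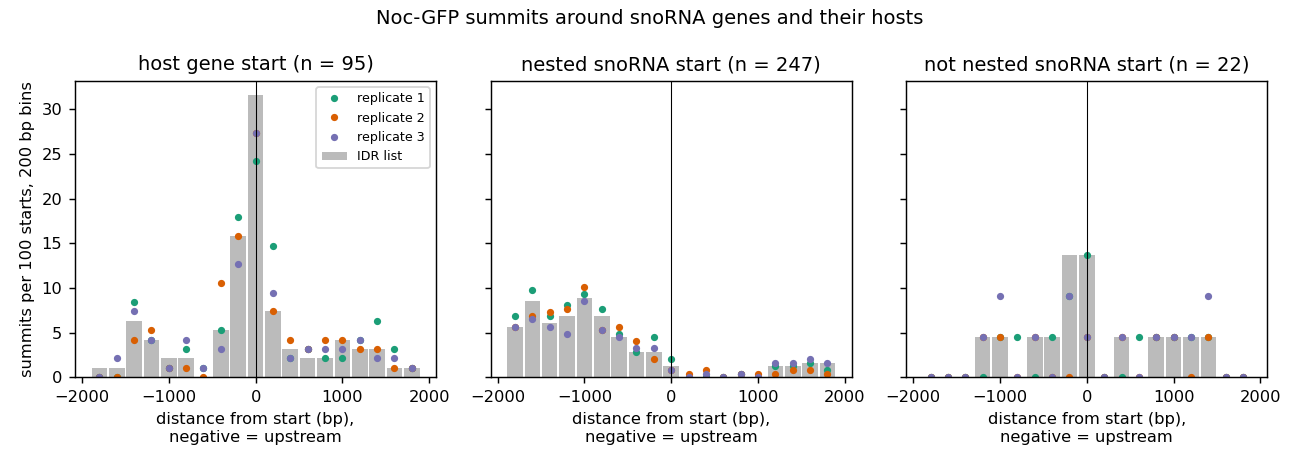
Summits per 100 starts (vertical axis) by distance from the start in bp (horizontal axis, 200 bp bins, negative is upstream) for 95 host gene starts, 247 nested and 22 not nested snoRNA starts, with grey bars for the IDR list and points for the 3 replicates at IDR length. Summits peak at host starts, reaching 31.6 per 100 starts in the central bin, and lie upstream of nested snoRNAs, with 64 IDR summits upstream and 0 downstream at 100 to 1100 bp, and 131 and 14 at 100 to 1900 bp.

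Calls at nested snoRNAs followed the distance to the host start and the presence of a summit there. Of the 35 snoRNAs within 500 bp of the nearest host start, in either direction, 11 were called (31.4%), of the 51 over 500 and up to 1000 bp away 2 were (3.92%), and of the 161 farther away 3 were (1.86%). The replicates gave 32.4% ± 1.65, 5.23% ± 1.13 and 2.28% ± 0.359 for these distances (SD, n = 3), without overlap between the first class and the others. All 11 calls in the first class were in the 28 snoRNAs whose host start had an IDR summit, and 0 in the 7 whose host start had none. The bins and the calls share the same summits, so this is a description of where they lie.

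**Figure D2:**
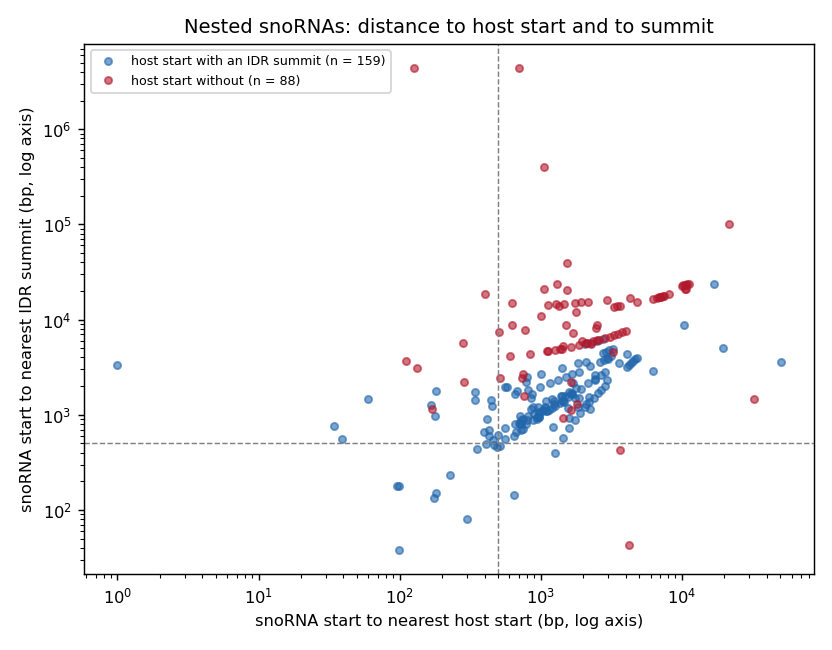
Distance from each of the 247 nested snoRNA starts to the nearest host start (horizontal, bp, log axis) and to the nearest IDR summit (vertical, bp, log axis), blue where the host start had an IDR summit (159) and red where it had none (88), with dashed lines at 500 bp. Most blue points run along the diagonal, and 16 points lie at or under 500 bp on the vertical axis.

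In 12 of the 16 called nested snoRNAs the summit was also within 500 bp of a host start. These were Me18S-A1576 in Uhg2, Psi28S-2949 and Or-aca5 in Uhg4, Me18S-C1366 and Me28S-C3227a in Uhg5, Psi18S-1086 in Sf3b3, U49:66Da in RpL14, Me28S-A774b in RpS12, Psi18S-1275 in RpS29, Me18S-C1096 in RpL3, Psi28S-1232 in RpL17, and Or-aca2, which lies in both RpS6 and the pseudogene CR33222. The other 4 had a summit that was not at a host start, of which 2 were left without replicate 2. The snoRNA gcl-a, in an intron of the germ cell gene gcl (germ cell-less), had a summit 144 bp upstream (IDR signal 822) and was called in all 3 replicates, with the summit 141, 123 and 143 bp upstream. It lies 647 bp from the gcl start, so that summit is only just beyond 500 bp of the host start, and gcl had another summit 278 bp upstream of its start (signal 588). Psi18S-525a, the first of the snoRNAs in Arpc2, had a summit 400 bp upstream (signal 315), at 407, 438 and 397 bp upstream in replicates 1, 2 and 3. Me18S-C1968 in Swim had a summit 43 bp downstream of its start (signal 343) and was called in replicates 1 and 2, whereas abba-a in tn (thin, a TRIM protein gene) had one 422 bp upstream (signal 239) and was called in none.

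The window around the Arpc2 intron summit is shown because it is the summit nearest to the largest group of snoRNAs in one host that was not at a start. It reaches 75 bases to each side of the summit on the coding strand of dm6, and none of the first 4 words above occurs in it on either strand, so nothing is in capitals.
Arpc2 intron, chr2L:20417873-20418023, plus strand: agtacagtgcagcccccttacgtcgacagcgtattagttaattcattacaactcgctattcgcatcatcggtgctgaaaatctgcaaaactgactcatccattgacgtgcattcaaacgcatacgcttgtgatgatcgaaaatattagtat
Psi18S-525a and the next snoRNA, Psi18S-640a, stood on either side of the limit of 500 bp, with this summit 400 and 575 bp upstream. The 5 called snoRNAs nearest to the limit were Me28S-C3227a (458 bp), Me18S-C1096 (468 bp), Or-CD13 (478 bp), U49:66Da (481 bp) and Or-aca5 (490 bp). The 5 nearest outside it were Or-ACA6 (519 bp), Me18S-G1620 in Uhg2 (541 bp), Or-CD11a in RpL28 (553 bp), Me28S-A2113 in RpL30 (561 bp) and Psi18S-640a (575 bp).

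The snoRNAs without a host were called more often than nested ones in the IDR list, but they are few. Of 22, 7 were called (31.8%, Wilson 16.4% to 52.7%), against 6.48% of the nested ones, a difference of 25.3 points. The share of all annotated genes, 18.9%, lies inside that interval. In the reduced lists of replicates 1, 2 and 3, 5, 2 and 4 of the 22 were called (22.7%, 9.09% and 18.2%), against 18, 17 and 18 of the nested ones (7.29%, 6.88% and 7.29%). All annotated genes stood at 19.8%, 17.7% and 19.0%, so the snoRNAs without a host were above that background in replicate 1 alone. The share of snoRNAs without a host was higher than that of nested ones in 3 of 3 libraries, by 15.4, 2.21 and 10.9 points. This difference nearly vanished in replicate 2 (exact sign-flip permutation test over libraries, two-sided, p = 0.25, the smallest that 3 libraries allow). With snoRNAs whose starts lay within 500 bp joined to clusters, 5 of 18 clusters without a host and 14 of 117 with one were called, a difference of 15.8 points in the IDR list. In replicate 2 the direction turned, with 2 of 18 against 16 of 117, while replicates 1 and 3 gave 5 and 4 of 18 against 15 and 16 of 117 (exact permutation p = 0.5). Of snoRNAs whose own start was more than 500 bp from the start of any other gene, 5 of 16 without a host (31.3%) and 5 of 206 nested ones (2.43%) were called. Of these 5 without a host, Psi28S-1153 and an unnamed neighbour shared a summit that was itself within 500 bp of another gene's start. No reduced replicate list had that summit. Replicates 1, 2 and 3 called 3, 2 and 3 of 16 and 6, 5 and 6 of 206. The difference between these replicate shares was 13.9 points ± 3.33 (SD, n = 3, exact permutation p = 0.25, the smallest possible), so each library showed it, though on 2 or 3 snoRNAs.

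The 7 called snoRNAs without a host differed in whether their summit was also within 500 bp of another gene's start. Psi28S-1153, a pseudouridylation guide, and 2 unnamed snoRNAs beside it shared 1 weak summit (signal 230), which lay 411, 247 and 42 bp upstream of them. The summit was also within 500 bp of the start of CG13334, which lies 490 bp from the nearest of these snoRNA starts. No reduced replicate list had a summit there. The snoRNA listed as 185, whose summit lay 228 bp upstream (signal 311) near a transfer RNA gene for glutamate, was called in 2 replicates. The other 3 had no start of another gene within 500 bp of their summit. Psi18S-301, a pseudouridylation guide on 3R, 2104 bp from the nearest start of another gene, had a summit 66 bp upstream of its own start (IDR signal 444, rank 2612). It was called in all 3 replicates, with summits 7, 87 and 214 bp upstream and signals of 128, 108 and 244 in their lists. Psi18S-176 had a summit 9 bp upstream (signal 371) and was called in replicates 1 and 3, and Or-CD13, an orphan box C/D snoRNA, 1 of 4 snoRNA or scaRNA genes on the other strand of the gene egr, had one 478 bp downstream (signal 400.0) and was called in replicates 2 and 3.

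Psi18S-301 is printed as the one snoRNA without a host that was called in all 3 replicates. The sequence is that of the gene on dm6, with the ACA box, 3 bases before the 3′ end, in capitals.
snoRNA:Psi18S-301, chr3R:20574906-20575043, plus strand: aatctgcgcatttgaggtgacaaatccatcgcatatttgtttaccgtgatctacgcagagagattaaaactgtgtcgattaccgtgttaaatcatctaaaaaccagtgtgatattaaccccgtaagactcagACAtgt
The 3 U3 genes, which are transcribed without a host, had no IDR summit within 500 bp. U3:9B on X had a pooled summit 130 bp downstream of its start (signal 131, rank 12320). U3:54Aa and U3:54Ab had pooled summits 58 bp upstream and 28 bp downstream, near the bottom of that list (signal 42.0 and 40.1, ranks 29115 and 29932 of 30000). These last genes have identical sequences, and whether reads were divided between such copies is not given in the sources used here. In the whole pooled list 15 of the 22 snoRNAs without a host (68.2%) and 32 of 247 nested ones (13.0%) were called, against 39.4% of all annotated genes.

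The starts of the host genes, unlike those of the snoRNAs, often had a summit. Of the 95 hosts 55 were called in the IDR list at 1 or more of their transcript starts (57.9%, Wilson 47.8% to 67.3%), against a background of 21.4% of all genes of the same biotypes and 21.2% of those that host no snoRNA. In the pooled list 71 were called (74.7%), against 41.4% of all such genes. The replicates called 53, 58 and 54 hosts, or 57.9% ± 2.78 (SD, n = 3), against 21.1% ± 0.936 for other genes and a background of 22.2%, 20.4% and 21.4%. The difference of 33.8, 40.9 and 35.6 points in replicates 1, 2 and 3 was 36.8 ± 3.71 on average, so far larger than the spread between libraries (exact sign-flip permutation test, two-sided, p = 0.25, the smallest that 3 libraries allow). Of the 55 called hosts 39 were called in all 3 reduced replicate lists, 16 in 1 or 2 and 0 in none. Counted by snoRNA, 159 of 247 nested snoRNAs (64.4%) had a host with a summit at its start, with 157, 151 and 154 in the replicates. This count was 96 without replicate 1 and 99 without replicate 3. Of the hosts, 29 of the 55 called ones had their summit also within 500 bp of the start of a gene that is no host, so the summits cannot be assigned to the hosts alone. Neither this count nor that of calls in all 3 replicates is given for other called genes.

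The peaks at host starts were of ordinary strength. The median signal of the strongest start summit was 417 for the 55 called hosts and 412 for the 3684 other called genes, at median ranks of 2890 and 2938.5 in the IDR list. By signed distance, host summits lay at a median of 14 bp upstream of the start, against 122 bp upstream for other called genes. Fewer hosts had the summit upstream of the start in the IDR list, 32 of 55 (58.2%) against 72.4% of other called genes. Of these 55 hosts 24 were ribosomal protein genes. Neither gene class nor number of starts was held equal here, and the replicates were not compared. The distance regardless of side was not compared. In 34 of the 55 the summit was within 100 bp of a start, a count not given for other called genes.

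Ribosomal protein genes had the highest share of the 3 classes, both among hosts and among genes that host no snoRNA, and hosts stood above the other genes in each class. Of the 29 hosts that encode cytosolic ribosomal proteins 24 had an IDR summit at a start (82.8%, Wilson 65.5% to 92.4%), against 45 of the 64 ribosomal protein genes that host no snoRNA (70.3%, Wilson 58.2% to 80.1%). These intervals overlap widely. In the replicates the hosts stood at 79.3%, 93.1% and 79.3% and the others at 65.6%, 60.9% and 64.1%, so the hosts were higher in 3 of 3 libraries, by 20.4 points ± 10.2 (SD, n = 3, exact sign-flip permutation p = 0.25, the smallest possible). Of the 55 other protein-coding hosts 26 were called (47.3%, replicates 47.9% ± 2.10), against 24.1% of protein-coding genes outside both groups (replicates 24.1% ± 1.10), and this difference too was positive in 3 of 3 libraries (23.8 points ± 3.03, exact permutation p = 0.25). Of the 11 noncoding hosts, a pseudogene included, 5 were called (45.5%, replicates 39.4% ± 5.25), against 8.95% of other noncoding genes and pseudogenes (replicates 8.78% ± 0.307). The called ones include the pseudogene CR33222, whose IDR summit is also that of RpS6 (signal 252), so this peak counts in both classes. The 55 called hosts rest on 54 distinct summits.

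**Figure D3:**
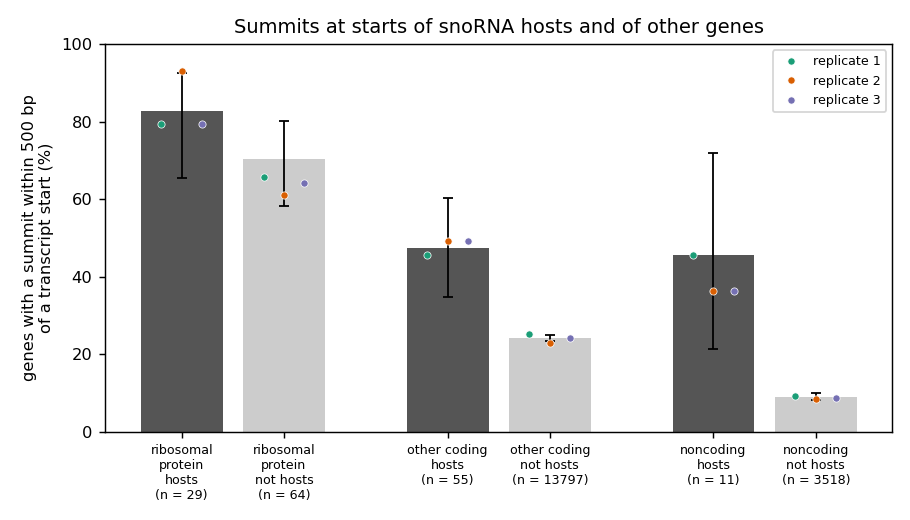
Share of genes with a summit within 500 bp of a transcript start (percent) for hosts (dark bars) and genes that host no snoRNA (light bars) in 3 classes, with bars and Wilson 95% intervals for the IDR list and points for the 3 replicates. Hosts stand above the other genes of their class in every replicate, and the gap is widest relative to the light bar for noncoding hosts, 45.5% against 8.95%. The called noncoding hosts include the pseudogene CR33222, which shares its summit with RpS6.

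Of the 26 hosts with 3 or more snoRNAs, which together hold 168 of the 247 nested ones, 17 had an IDR summit at a start, and 17, 16 and 17 did in the replicates. Among the 69 hosts of 1 or 2 snoRNAs 38 did. The Arp2/3 complex gene Arpc2 hosts the most, 17 guides of the Psi18S-525 and Psi18S-640 families, and had a summit 156 bp upstream of a start (IDR signal 324). It was called in replicates 1 and 2 (signals 124 and 167) and not in replicate 3, and the summit of replicate 2 lay elsewhere, 33 bp upstream. RpS5a hosts 14 and had a summit 68 bp downstream of a start (signal 411). It was called in all replicates, at signals of 119, 181 and 159, with the summit of replicate 2 at 41 bp upstream. The next coding hosts with a summit were Sf3b3 with 9 snoRNAs (signal 269) and kra, a translation regulator gene, with 8 (signal 392). Both genes were called in replicates 1 and 3 and not in the reduced list of replicate 2. These hosts thus rest on 2 libraries each at that list length, apart from RpS5a.

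The ribosomal protein hosts of this group all had a summit. RpS7 hosts 7 snoRNAs and had signals of 207, 88.8 and 188 in replicates 1, 2 and 3 (IDR 451, 93 bp downstream of a start), and RpS16 hosts 5, with signals of 175, 150 and 154 (IDR 438, 11 bp downstream). RpL17 hosts 4 and had signals of 153, 119 and 187 (IDR 451, 16 bp upstream). RpL3 hosts 4, with 201, 80.3 and 146 (IDR 389). These hosts and RpS4, with 3 snoRNAs (IDR 678, 27 bp downstream), were called in every replicate. RpL28, with 5 snoRNAs, had signals of 230 and 121 in replicates 1 and 2 (IDR 511) and none in replicate 3, and RpL23A, with 4, had 206 and 232 in replicates 1 and 3 (IDR 607) and none in replicate 2.

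The Uhg genes, whose spliced transcripts are not known to encode protein, were divided. Uhg4 hosts 7 snoRNAs and had the highest signal of the noncoding hosts (IDR 684, 78 bp upstream), with 273, 175 and 216 in the replicates. Uhg2 had signals of 166, 77.4 and 177 (IDR 375) and Uhg8, with 3 snoRNAs, 130, 235 and 94.5 (IDR 448, 251 bp upstream). Uhg5 hosts 11 and was called in replicates 1 and 3 (134 and 116, IDR 308, 29 bp downstream). Uhg1, which hosts 16, had no summit at its start in any reduced list and a weak one in the pooled list (signal 77.7, rank 19175), and Uhg3, which hosts 3, was called in the pooled list alone, 62 bp upstream of its start (signal 144, rank 11271). Uhg7, which shares its 4 snoRNAs with RpL23A, had none in any list. Of the 7 Uhg hosts 4 were thus called in the IDR list.

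Other large hosts lacked an IDR summit at a start. The chromatin remodeller gene dom (domino) hosts 15 and was called in replicate 3 alone (signal 103). Hrb98DE, for an RNA-binding protein of the hnRNP type, and Nop60B, for dyskerin itself, host 7 each and were called in replicate 2 but in no other replicate (signals 84.3 and 146). Hrb98DE also had a summit in the pooled list, 369 bp upstream of a start (signal 150.2, rank 10847), and Nop60B had none there. CG10576 and lncRNA:CR45184, with 5 each, were called in no list. The latter lies inside Sf3b3 on the same strand and shares its 5 snoRNAs with that called host. The poly(A)-binding protein gene pAbp, with 3, was called in replicates 2 and 3 (145 and 94.7) and in the pooled list (130, rank 12462). Far stronger peaks were at lola, for a zinc finger factor with a BTB domain, with 4 snoRNAs (IDR signal 2102, rank 138), and Stt3A, for an oligosaccharyltransferase subunit, with 3 (IDR signal 1902.5, rank 176).

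**Figure D4:**
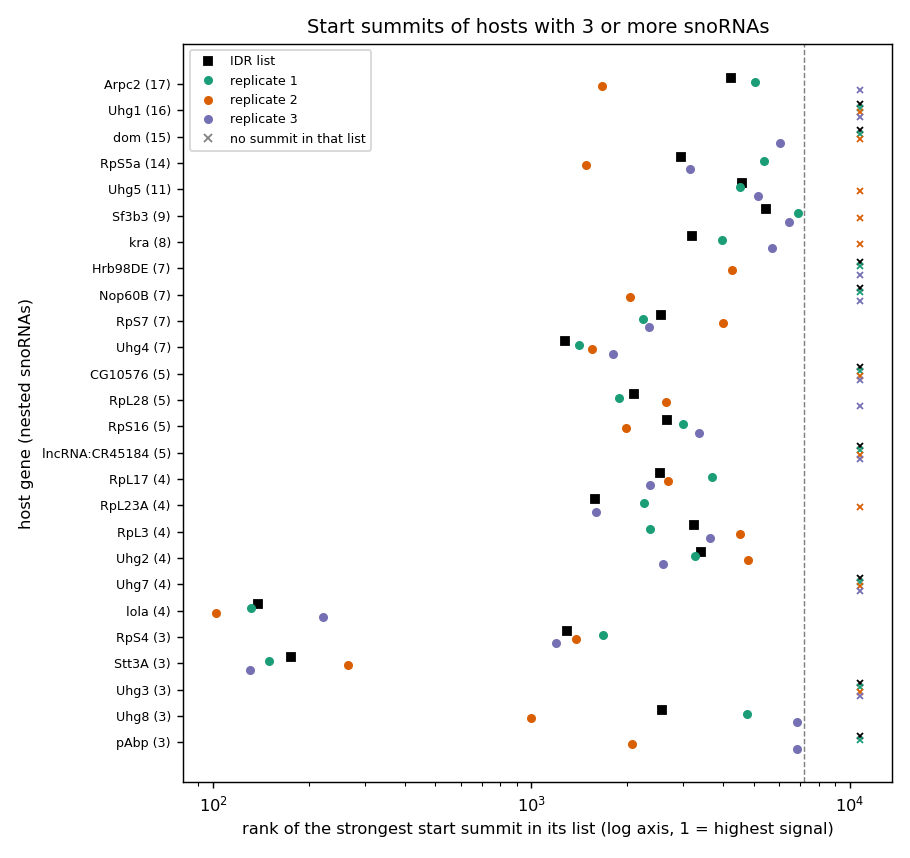
Rank of the strongest summit at a start (horizontal, log axis, 1 is the highest signal) for the 26 hosts of 3 or more snoRNAs (number in brackets), with squares for the IDR list, coloured points for replicates at IDR length and crosses for lists with no such summit; the dashed line is the list length of 7201. The ranks of lola and Stt3A are between 102 and 265 in all lists, most others are between 1000 and 7201, and 5 hosts have crosses only.

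The strongest start summits of all were at hosts of 1 to 4 snoRNAs, and of those named here RpL14 alone is a ribosomal protein gene. The gene for the nesprin Msp300, which links nuclei to the cytoskeleton of muscle, led with an IDR signal of 3529 (rank 32, and ranks 27, 33 and 27 in replicates 1, 2 and 3). After it came lola, then Dys, the dystrophin gene (2031), Stt3A, CG1142 (1858), drn (1371), CG12316 (1299), Irbp, for a Ku subunit of DNA repair (1079), and RpL14 (762). Each of these was called in every replicate. The IDR summits of Msp300, Stt3A and lola lay 418, 406 and 354 bp upstream of a start, and those of the other genes named 223 bp or less from one. Psi18S-525k, the snoRNA in Msp300, lies 50634 bp from the nearest start of that host. Of the 40 hosts without an IDR summit at a start, 16 had a pooled one, and 18 of the 40 had none in the pooled list or in any reduced replicate list, among them Act57B, a muscle actin gene, and Prp8, for a core protein of the spliceosome.

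Some genes for the proteins of the snoRNA particles had a summit as well, but too few genes are listed to set them apart from other protein-coding genes. Of 15 genes of the box C/D core, the box H/ACA core and particle assembly 5 had an IDR summit at a start (33.3%, Wilson 15.2% to 58.3%), against a background of 24.5% of protein-coding genes, and 6, 6 and 6 did in the replicates, against 25.4%, 23.3% and 24.7%. In the pooled list 11 did, against 45.4%. The 5 were Nop56, of the box C/D core (signal 235, 60 bp upstream, in no reduced replicate list), and the assembly genes pont (854, 146 bp upstream), rept (467, 116 bp upstream), Nopp140 (443, 97 bp upstream) and Nufip (256, 213 bp upstream), each of these called in 3 of 3 replicates. The helicase gene pont had signals of 366, 287 and 235 in replicates 1, 2 and 3, and its partner rept 181, 145 and 154. Of the remaining genes, Fib (fibrillarin, also a host of 1 snoRNA), Nop10, spag, hoip and CG10341 had a summit in the pooled list (signals 216, 201, 125, 42.5 and 210), with Nop10 also called in replicate 3 and CG10341 in replicate 1. The gene nop5, a host as well, was called in replicates 1 and 3 (362 and 204) and in the pooled list (201). Nop60B and NHP2, of the box H/ACA core, were called in replicate 2 alone, and Gar1 and CG10055 had no summit in these lists.

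The words searched in host promoters were spread unevenly, as the 3 promoters printed above show for single genes. The word CTTT at the start occurred in 20 of 95 hosts (21.1%), in 11 of 29 ribosomal protein hosts (37.9%) and in 20 of 64 ribosomal protein genes that host no snoRNA (31.3%), against 5.79% of 17474 promoters of all genes of these biotypes. It was found in 16 of the 55 hosts with an IDR summit and 4 of the 40 without. Among all genes of these biotypes with a summit it occurred in 6.26%, near the share of all promoters. Ribosomal protein hosts were 11 of the 20 with CTTT, and 24 of the 29 in that class had a summit. Class and summit are therefore not told apart here. The word TATCGATA occurred in 19 hosts (20.0%) against 7.77% of all promoters and 12.1% of those with a summit. Among hosts it was in 10 of 55 with a summit and 9 of 40 without. CACGTG occurred in 10 hosts (10.5%) against 4.15% of all promoters and 4.68% of those with a summit. Among hosts it was in 2 of 55 with a summit and 8 of 40 without, and the latter include Uhg1 and Uhg7. TAATTA (24.2% against 19.9%) and TGATAA (18.9% against 22.2%) were near the shares of all promoters. A match is a word in these 300 bases and not a site, and no test was made of these shares.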

How the data were processed

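Peak lists of 3 ChIP-seq libraries and of the pooled libraries, and an IDR list, were used. Per the labels the assembly is dm6, and the size range after sonication was 200 to 800, with no unit named. Per the text notes deposited with the lists, each replicate list and the pooled list was made against a control alignment, which was not analysed here. The peak caller, like its settings, is not given in the sources used here. A signal value is a score deposited by the authors on a scale that is not given. Summits are the peak start plus the deposited offset, written 1-based.

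Genes came from Ensembl release 115, and sequence from the RefSeq copy of dm6, whose arms contain every peak. Nested meant wholly inside a gene on the same strand, and several hosts were all kept. Shares were compared over libraries by exact sign flips, two-sided. The search for summits was checked on a simulated list. Scripts ran under Python 3.11.15 with scipy 1.17.1, pandas 2.3.3, numpy 2.4.6 and, for plots, matplotlib 3.10.9. The alternatives were 250 and 1000 bp, other lists, each replicate left out, hosts on either strand, the host gene start alone and clusters of snoRNAs. Named were all hosts of 3 or more snoRNAs, the 10 hosts of highest signal (1 of them is not reported here), called snoRNAs without a host, nested ones with a summit not at a host start, those next to the limit and the particle genes. The remaining called snoRNAs and the hosts named for their lack of a summit were chosen after their values were seen. Of the particle genes, 2 were found through a RefSeq synonym. Members and lists were chosen with earlier results of these data known. The labels call the libraries biological replicates, and no group was large enough for a test of outlying samples.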

Additional observations from a re-analysis of the deposited data

How the results depend on the processing

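Hosts exceeded other genes, and snoRNAs without a host exceeded nested ones, in every alternative run on the IDR or pooled list. The difference for hosts ranged from 25.2 points (the stronger part of the IDR list, its upper 50% by signal) to 40.9 (replicate 2 alone), and nested minus not nested ranged from -55.2 points (whole pooled list) to -2.21 (replicate 2 alone), with the clusters of replicate 2 alone the exception in direction. The latter therefore has no stable size. The 23 called snoRNAs became 14 at 250 bp, 63 at 1000 bp, 11 in the stronger part and 47 in the pooled list, while replicates left out gave 17 to 21. The 159 nested snoRNAs with a called host became 104 in the stronger part and 96 to 156 with replicates left out. Without replicate 1 or 3 they were 96 and 99, because Arpc2, Uhg5, Sf3b3, kra, RpS7 and RpL23A, with many snoRNAs, had no summit of replicate 2 within 100 bp. The hosts called were then 42 and 44 in place of 55, and 17.2% and 17.8% of other genes. The 4 nested snoRNAs with a summit away from a host start became 2, 1 and 11 at 250 bp, in the stronger part and in the pooled list, and 2 to 3 with replicates left out. The 4 without a host whose summit was near another start became 1, 0 and 8 in that order, and 2, 0 and 1 in replicates 1, 2 and 3. The 5 particle genes became 3 in the stronger part and 11 in the pooled list. A replicate left out had still contributed to the pooled call. No paired analysis was possible because there is 1 group.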
